A study of Glycine max with 12 samples.

Results

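The response of soybean leaves to polyethylene glycol (PEG) was measured on cDNA arrays that carried leaf RNA of PEG-treated plants against leaf RNA of water controls. The members are the hybridizations whose titles name PEG, 4 of the 12 in the series. They stand for 2 biological replicates, each hybridized in both dye orientations, and the other hybridizations compare AZC with water and tunicamycin (TUN) with DMSO. All groups were cut aerial parts of 3-week-old Glycine max plants of the cultivar Dare, placed in 10% (w/v) PEG of high molecular weight for 16 h, in water for the same time, in 50 mM AZC for 16 h, or in 10 μg/ml TUN for 24 h, after which leaf RNA was taken. The shoots had no roots during the treatment. The labels do not say whether the AZC and PEG hybridizations shared water plants, nor how many plants made 1 replicate. The p-values rest on a spread pooled over the PEG, AZC and TUN replicates of this series only. They do not measure the spread between the PEG samples alone.

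PEG is a polymer too large to enter the cell, so it lowers the water potential outside and draws water out of the tissue. Plant cells under water deficit are known to make late embryogenesis abundant (LEA) proteins, small hydrophilic proteins that also accumulate in drying seeds, and enzymes that remove reactive oxygen and reactive aldehydes. Photosynthetic genes are often turned down. AZC, a proline analog that makes proteins misfold, and TUN, an inhibitor of N-glycosylation, both load the endoplasmic reticulum (ER) with unfolded proteins, to which cells respond with the ER chaperones BiP and calnexin.

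The array holds 5760 clones from libraries of developing seeds, so genes that only leaves express may be missing from it. A gene name was given for 253 clones of 200 genes, and all others are counted but not named. Gene lists and families below therefore cover only the clones with a gene name, and other clones of the same genes may be on the array. Clones are written with their GenBank identifiers, since several clones can carry 1 gene symbol. Values are log2 ratios of PEG over water as the authors deposited them, so that 1 unit is a 2-fold difference. In bulk leaf RNA, fewer cells of a type and less RNA per cell cannot be told apart.

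Sequences of a pair of clones show what the probes on either side of the response look like. The first is the start of the PM30 clone AW397921, 300 bases from its first ATG, which carried the largest rise. PM30 is encoded on chromosome 13 and belongs to the LEA proteins. The second is a stretch of 227 bases of the calnexin clone AW508066, from a gene on chromosome 6 (LOC547851), which fell under PEG. Both are read 5′ to 3′ from the clone list of the study, and capitals mark the stretch that recurs most closely within each clone: CCCAAGCNGCNAAGGANAAG in PM30 and CCNGANGACTGGGA in calnexin, where N is any base.
PM30 AW397921: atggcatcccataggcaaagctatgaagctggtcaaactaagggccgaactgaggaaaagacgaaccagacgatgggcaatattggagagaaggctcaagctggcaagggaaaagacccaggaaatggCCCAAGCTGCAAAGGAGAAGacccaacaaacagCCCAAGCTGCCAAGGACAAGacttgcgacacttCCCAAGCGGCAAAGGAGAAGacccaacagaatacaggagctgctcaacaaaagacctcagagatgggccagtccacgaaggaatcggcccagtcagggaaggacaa
calnexin AW508066: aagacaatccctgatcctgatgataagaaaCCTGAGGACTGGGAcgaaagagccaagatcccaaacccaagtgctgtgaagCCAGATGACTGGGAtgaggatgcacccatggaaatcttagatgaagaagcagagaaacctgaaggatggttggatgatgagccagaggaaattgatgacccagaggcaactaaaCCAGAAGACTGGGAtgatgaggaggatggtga
Each motif was taken from its own clone, where it occurs in 3 separate copies on the printed strand and 0 on the other. Of the 19 clone sequences in that list, 1 held the PM30 motif and 1 held the calnexin motif on either strand (5.26% each). The motifs describe the clones and say nothing on expression.

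Under PEG, 239 clones rose and 247 fell among the 4235 that could be tested, 11.5% of them at an adjusted p under 0.05 (limma with Benjamini-Hochberg adjustment, 5.64% higher and 5.83% lower). With plain background subtraction of the scanner intensities in place of the deposited ratios, the split was 186 higher and 293 lower. The median over all tested clones was 0.04. The median of the called rises was 0.65 and that of the called falls -0.81, and 73 rises and 98 falls were larger than 2-fold. All 486 called clones had the same sign in both biological replicates, and 457 had it in all 4 hybridizations. A call favors clones whose values agree, so this is not separate evidence of agreement. Leaving out 1 replicate also changed the number of clones tested from 4235, to 5502 without PEG replicate 2 and 4189 without PEG replicate 1. Such a fit holds 1 PEG value per clone, and its spread comes from the AZC and TUN replicates, not from PEG. Here and below, a call kept or lost in such a fit is therefore not a replicated test of PEG. Without PEG replicate 2 the counts were 91 higher and 116 lower, and without PEG replicate 1 they were 258 and 202.

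Of the named clones, 194 were tested, of which 21 rose and 27 fell. The share called was 24.7% for named clones, against 11.5% of all clones. For named clones outside the lists that the study drew from these same hybridizations it was 15 of 159 (9.43%). The 11.5% of all clones still includes unnamed clones of those lists, so it is not a like comparison for the 9.43%. Clones in those lists are not independent evidence of their direction. The remaining 59 lacked a value or carried a mark of the scanner software in at least 1 hybridization. Over the whole array 1525 clones were not tested, and 1452 of these lacked a value in PEG replicate 2 alone. The 4 hybridizations held between 4789 and 5735 ratios. Replicate 2 was the weaker one: its hybridization with the treated RNA in Cy5 had 44.7% of Cy5 spots and 82.7% of Cy3 spots above background, against 97% to 100% in each channel of the other PEG hybridizations, and it was quantified by another method. Of the 486 called clones, the PEG channel was above background on all 4 hybridizations for 316, on 3 for 169 and on 2 for 1, and the water channel for 447, 37 and 2. Changes were larger in replicate 2 than in replicate 1 for 397 of the 486 called clones, and the part of the weaker hybridization in this was not tested.

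Dye-swap pairs of the same RNA agreed little in rank over the tested clones (Spearman rho 0.08 in replicate 1 and 0.10 in replicate 2), whereas hybridizations of different replicates in the same orientation agreed better (0.56 with the treated RNA in Cy5 and 0.60 in Cy3). After each pair was averaged, the replicates agreed at Pearson r 0.84 and rho 0.54. These are correlations over 4235 clones, which are not independent and share arrays and dyes. All hybridizations with the treated RNA in Cy3 were quantified on 1 day, so that day and orientation cannot be told apart. With the treated RNA in Cy5 only, 240 clones rose and 217 fell of 4973 tested, and in Cy3 only 370 rose and 352 fell of 4766.

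**Figure D1:**
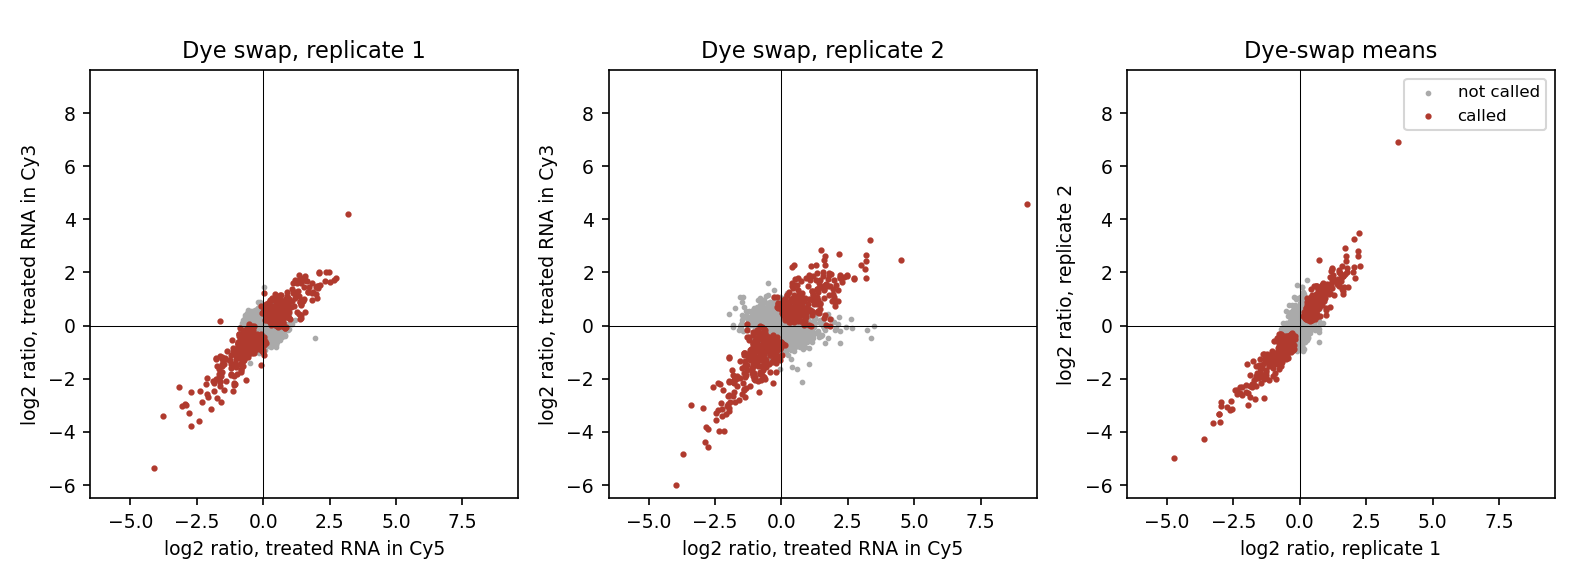
Log2 ratios of PEG over water of the 4235 tested clones, treated RNA in Cy3 against treated RNA in Cy5 in each biological replicate (left and middle) and dye-swap means of replicate 2 against replicate 1 (right), with called clones in red. Called clones lie along the diagonal in all 3 panels, which the call itself favors, since it picks clones whose values agree away from 0. Over all 4235 tested clones, called ones included, rho was 0.08 and 0.10 in the dye swaps.

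Transcripts of seed maturation and LEA proteins rose. These proteins protect membranes and enzymes as a seed dries, and they are made in leaves under water deficit. Of 12 clones on the array 8 were tested, of which 6 rose, 0 fell and 2 were not called (75% called, against 11.5% of all clones). Their median was 0.81, against 0.04 for all clones. Their 6 calls came from 6 genes. Those of PM30, PM34, PM12 and PM41 were in the lists that the study drew from these same hybridizations.

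PM30 (AW397921), a LEA protein, had the largest rise of all tested clones. Its log2 ratios in replicate 1 were 3.18 with the treated RNA in Cy5 and 4.20 in Cy3, and in replicate 2 they were 9.24 and 4.56. All 4 values are far above 0, and the value of 9.24, from the weak hybridization, stands apart from the other 3. The fitted value over the 2 PEG replicates was 5.29 ± 0.55 (SE of the joint fit), a 39.2-fold rise (adjusted p 0.000255). That SE rests on 1 spread shared by the PEG, AZC and TUN replicates. It does not measure the gap between the PEG replicates, whose means were 3.69 and 6.90. With scanner intensities under another background correction and normalization in place of the deposited ratios, the fitted value of PM30 was 4.79. The water channel of this clone was above background on 2 of 4 hybridizations, both of replicate 1, where the rise was 12.9-fold. Without PEG replicate 2 the value was 3.69, and without the weak hybridization it was 4.13.

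PM34 (AI735868), a seed maturation protein that resembles a sugar dehydrogenase, had 2.11 and 1.99 in replicate 1 and 3.33 and 3.20 in replicate 2. The pairs agreed closely within a replicate, and replicate 2 was higher. It rose by 2.66 ± 0.23 (adjusted p 0.000105), a 6.31-fold rise. Its water channel was above background on 3 of 4 hybridizations, and on both of replicate 1, where the value was 2.05 (4.14-fold). A second PM34 clone, AW568206, was not tested for lack of 1 value and had 1.12, 1.25 and 1.13 in the other 3 hybridizations. The third, AI940821, had 0.37 and 0.72 in replicate 1 and no value in replicate 2.

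PM12 (AI748083), which the study names a dehydrin, had 1.23 and 1.24 in replicate 1 and 1.85 and 1.95 in replicate 2. Its rise was 1.57 ± 0.15 (adjusted p 0.000183), or 2.97-fold. Its water channel too was above background on 3 of 4 hybridizations, and the value in replicate 1, where it was above on both, was 1.24 (2.36-fold). Dehydrins are LEA proteins that bind membranes and water in dehydrated cells. PM41 (AW397256) ran the other way between replicates, with 1.21 and 1.04 in replicate 1 and 0.76 and 0.64 in replicate 2 (0.91 ± 0.13, adjusted p 0.00164). PM29 (AI940815) rose by 0.50 ± 0.08 (adjusted p 0.00297).

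PM39 (AW509471) was called at 0.70 ± 0.16 (adjusted p 0.024) on values that did not agree. They were 0.88, 1.11 and 1.08 in 3 hybridizations and -0.27 in the weak one, and without PEG replicate 1 the call was lost (0.41, adjusted p 0.192). With the weak hybridization alone left out, the value was 1.04 (adjusted p 0.00248). PM37 (0.13) and PM40 (0.09) were not called. PM9 (AW568142), chosen after its values were seen, was not tested, since it had no value in the weak hybridization. It had 2.03 and 2.33 in replicate 1 and 3.29 in the remaining hybridization of replicate 2, all above those of PM12. PM23 (AI735828), also without 1 value, had 0.02, 0.04 and -0.02.

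Transcripts for antioxidant and detoxifying proteins rose in part. Of 14 tested clones of this list 7 rose, 1 fell and 6 were not called (57.1% called, against 11.5% of all clones), with a median of 0.54. All 7 rises were in the lists that the study drew from these same hybridizations. The rises came from both ferritin genes, ALDH7B1, an epoxide hydrolase and some glutathione S-transferases (GSTs). Without PEG replicate 2, 3 of the 8 calls remained and 5 were lost, and without PEG replicate 1, 7 remained.

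Ferritins store iron in the plastid and so keep it from forming radicals. The ferritin clone AW186337 (LOC547698) had 1.37 and 0.88 in replicate 1 and 1.98 and 1.71 in replicate 2, and rose by 1.48 ± 0.20 (adjusted p 0.0013), a 2.80-fold rise. Without PEG replicate 2 it had 1.12 with an adjusted p of 0.0581. Of the ferritin gene H-1, the clone AW279016 rose by 1.03 ± 0.16 (adjusted p 0.00394, with 0.0868 without PEG replicate 2), whereas AW101901 had 0.03 ± 0.09 and was not called.

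ALDH7B1, an aldehyde dehydrogenase that oxidizes the reactive aldehydes formed under stress, was on the array as 2 clones, and both rose. AW598015 had 0.57 and 1.0 in replicate 1 and 1.0 and 1.5 in replicate 2 (1.02 ± 0.13, adjusted p 0.00071). AW508769 had 0.58 and 0.93, then 0.93 and 1.81 (1.06 ± 0.17, adjusted p 0.00276). The fitted values differed by 0.04, less than either SE. For AW508769 the call was lost without PEG replicate 2 (0.76, adjusted p 0.0964).

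The epoxide hydrolase clone AW568104 (LOC548084), from a family that opens epoxides of fatty acids and of other compounds, rose by 1.09 ± 0.14 (adjusted p 0.000785), or 2.13-fold. Its second clone, AW164476, had 3 values of 0.21, 0.29 and -0.02 and was not tested. GSTs join glutathione to toxic or oxidized molecules. GSTU41 (AW397276) had 1.42 and 0.83 in replicate 1 and 1.19 and 1.15 in replicate 2, one of the steadiest rises between the replicates (1.15 ± 0.11, adjusted p 0.000183, 2.22-fold). GSTa (AW459775) rose by 0.91 ± 0.12 (adjusted p 0.00154, with 0.0571 without PEG replicate 2).

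GSTU3 (AW471665, LOC547576) was the 1 fall in the list, at -0.29 ± 0.08 (adjusted p 0.0452). It had 0.12 with the treated RNA in Cy5 alone, and its call was lost when either replicate was left out (adjusted p 0.0954 without PEG replicate 1 and 0.291 without PEG replicate 2). Other GST clones with a gene name that were tested were GSTU9 (0.16), GSTU30 (-0.04) and GSTF5 (-0.05), none of them called. SODB, a superoxide dismutase, had -0.57 ± 0.20 (adjusted p 0.095) and DHAR3, a dehydroascorbate reductase, had -0.12, neither called.

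**Figure D2:**
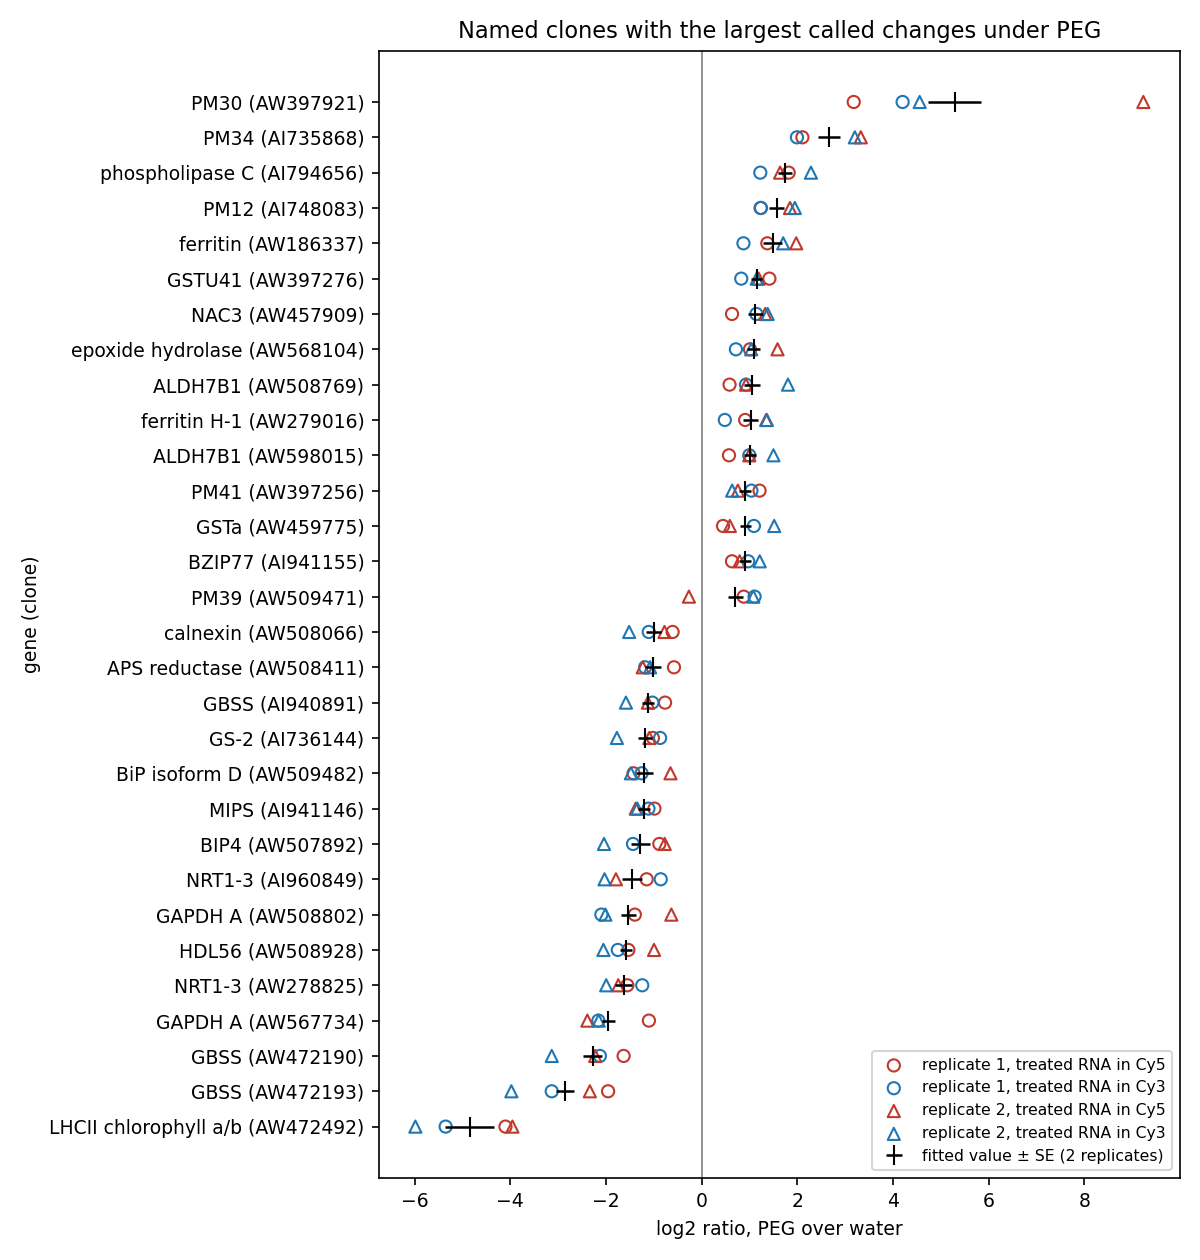
Log2 ratio of PEG over water of the 15 named clones with the largest called rises and the 15 with the largest called falls in each of the 4 hybridizations (circles, replicate 1; triangles, replicate 2; red, treated RNA in Cy5; blue, treated RNA in Cy3), with the fitted value ± SE in black. PM30 spreads from 3.18 to 9.24, and PM39 is the 1 clone with hybridizations on both sides of 0.

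Among 16 tested clones of transcription factors 4 rose and 1 fell (31.25% called, against 11.5% of all clones), with a median of 0.02. NAC3 (AW457909), of the plant NAC family, had 0.64 and 1.15 in replicate 1 and 1.33 and 1.38 in replicate 2, and rose by 1.12 ± 0.16 (adjusted p 0.00162). Without PEG replicate 2 its call was lost (0.89, adjusted p 0.068). BZIP77 (AI941155), of the basic leucine zipper family, rose by 0.90 ± 0.12 (adjusted p 0.00124), with hybridizations between 0.64 and 1.21. Smaller rises were called for BZIP121 (0.47 ± 0.12, adjusted p 0.0375) and NAC2 (0.33 ± 0.08, adjusted p 0.0249), and both were lost when either replicate was left out, with adjusted p of 0.0817 and 0.144 without PEG replicate 1 and of 0.402 and 0.0775 without PEG replicate 2.

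HDL56 (AW508928), a homeodomain-leucine zipper factor, fell. It had -1.53 and -1.75 in replicate 1 and -0.99 and -2.05 in replicate 2, which gave -1.58 ± 0.12 (adjusted p 8.96e-05), or 2.99-fold lower. A related factor, HDL57, had 0.11 and was not called. Clones for WRKY, MYB, heat shock and MADS factors and for the clock gene LHY had values from -0.34 to 0.32, with no call.

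Signaling genes gave 1 rise and 1 fall among 9 tested clones (22.2% called, against 11.5% of all clones). Phospholipase C (AI794656, LOC547865), which splits a membrane phosphoinositide into messengers, had 1.82 and 1.23 in replicate 1 and 1.64 and 2.29 in replicate 2. The replicates overlapped, and the rise was 1.74 ± 0.15 (adjusted p 0.000107), or 3.35-fold. The 14-3-3 gene GF14C fell by 0.51 ± 0.12 (adjusted p 0.024), but missed the threshold without PEG replicate 1 (adjusted p 0.0766) and without PEG replicate 2 (0.291). GF14A, of the same family, had 0.20 and was not called.

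Photosynthetic transcripts held the largest fall. In the list of photosynthesis and chlorophyll synthesis, 3 of 5 tested clones fell and 1 rose, with a median of -1.53. That was 80% called, against 11.5% of all clones. All 3 falls were in the lists that the study drew from these same hybridizations. The clone AW472492 (LOC547819), a chlorophyll a/b-binding protein of the light-harvesting complex of photosystem II, had -4.10 and -5.35 in replicate 1 and -3.95 and -5.98 in replicate 2. Values with the treated RNA in Cy3 were lower in both replicates. The fitted value was -4.85 ± 0.52 (adjusted p 0.000284), 28.8-fold lower and the largest fall of all tested clones. Its spot was saturated in 1 hybridization, replicate 2 with the treated RNA in Cy5, and without that hybridization the value was -5.35 (adjusted p 0.000384).

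Glyceraldehyde-3-phosphate dehydrogenase A (GAPDH A, LOC732655), the plastid enzyme of the Calvin cycle, was represented by 2 clones, and both fell. AW567734 had -1.10 and -2.16 in replicate 1 and -2.39 and -2.15 in replicate 2 (-1.95 ± 0.14, adjusted p 8.38e-05, 3.86-fold lower). AW508802 had -1.40 and -2.10, then -0.63 and -2.01 (-1.53 ± 0.16, adjusted p 0.000231). PSAD, a subunit of photosystem I, was called higher at 0.37 ± 0.09 (adjusted p 0.0407). That call was lost without PEG replicate 1 (adjusted p 0.0692) and without PEG replicate 2 (0.331).

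The light-harvesting and GAPDH A clones stand for genes that green leaves express strongly. Their water channel was above background on all 4 hybridizations. The clones of seed storage proteins, markers of another tissue, gave no limma call among 7 tested (before adjustment 1 was higher and 1 lower at p under 0.05, with 0 by the methods' t-test), with values from -0.49 (GY4, a glycinin) to 0.28 (KTI3, a trypsin inhibitor) and a median of -0.05. So the called rises of seed maturation clones stood beside storage protein clones with no call.

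Transcripts for starch and inositol synthesis fell for 2 genes. Of 7 tested clones 4 fell, 0 rose and 3 were not called (57.1% called, against 11.5% of all clones), with a median of -1.12. All 4 falls were in the lists that the study drew from these same hybridizations. Granule-bound starch synthase (GBSS, LOC100037476), which makes the amylose of starch granules, accounted for 3 of the calls. AW472193 had -1.95 and -3.13 in replicate 1 and -2.34 and -3.98 in replicate 2 (-2.85 ± 0.19, adjusted p 2.66e-05, 7.21-fold lower). AW472190 had -1.6304, -2.13, -2.22 and -3.13 (-2.28 ± 0.19, adjusted p 0.000162), and AI940891 was at -1.12 ± 0.13 (adjusted p 0.000422). The fourth clone, AW508018, had -0.50 to -0.88 in the 4 hybridizations, all below 0, and -0.74 ± 0.21 with an adjusted p of 0.0525.

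MIPS (AI941146), myo-inositol-1-phosphate synthase, the first step of inositol synthesis, had -0.99 and -1.11 in replicate 1 and -1.38 and -1.34 in replicate 2. Its value was -1.2 ± 0.13 (adjusted p 0.000369), 2.30-fold lower. A beta-amylase clone (AW432893, LOC547931), which degrades starch, had -0.64 ± 0.24 (adjusted p 0.123) with 4 values between -0.72 and -0.54. PMM, a phosphomannomutase, had 0.03.

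Transcripts for nitrogen and sulfur assimilation fell for 3 genes. Of 8 tested clones 4 fell and 0 rose (50% called, against 11.5% of all clones), with a median of -0.68. All 4 falls were in the lists that the study drew from these same hybridizations. NRT1-3, a nitrate transporter, fell in both of its clones. AW278825 had -1.55 and -1.24 in replicate 1 and -1.74 and -1.99 in replicate 2 (-1.632 ± 0.18, adjusted p 0.000369, 3.10-fold lower). AI960849 had -1.15 and -0.85, then -1.79 and -2.03 (-1.46 ± 0.20, adjusted p 0.00135), and replicate 2 was lower than replicate 1 throughout.

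GS-2, the plastid glutamine synthetase that fixes ammonium, fell in clone AI736144 (-1.19 ± 0.15, adjusted p 0.000771), which had -1.02 and -0.87 in replicate 1 and -1.09 and -1.77 in replicate 2. Its other clone, AW186035, had -0.33 ± 0.13 and was not called. 5-adenylylsulfate reductase (LOC547630), a key step of sulfate reduction, fell in AW508411 (-1.02 ± 0.16, adjusted p 0.00288, with 0.101 without PEG replicate 2). A second clone of it, AI938516, had -0.10 and was not called. EU3, an accessory protein of urease (-0.09), and O-acetylserine(thiol)lyase, which makes cysteine (-0.16), were not called.

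Transcripts for fatty acid desaturation and acetyl-CoA carboxylase also fell. Of 7 tested clones 4 were lower and 0 higher (57.1% called, against 11.5% of all clones), with a median of -0.49. FAD2-3, an omega-6 desaturase that makes linoleic acid, fell in both of its clones. AW100780 had -0.57 and -0.63 in replicate 1 and -0.82 and -1.29 in replicate 2 (-0.83 ± 0.13, adjusted p 0.00239), and AW471558 had -0.65 ± 0.10 (adjusted p 0.00306). FAD3A (AI960953), an omega-3 desaturase that makes linolenic acid, was at -0.76 ± 0.14 (adjusted p 0.00727), and ACCC-3, a subunit of acetyl-CoA carboxylase, at -0.49 ± 0.10 (adjusted p 0.0164). Of these 4 clones, AW100780 and AI960953 were in the lists that the study drew from these same hybridizations. All 4 calls were lost without PEG replicate 2, with adjusted p from 0.0693 (FAD2-3, AW100780) to 0.229 (ACCC-3), and all 4 held without PEG replicate 1. FAD2-1, the omega-6 desaturase known from seeds, had 0.27 (AW460032) and was not called, like KASI (0.26) and ACPD (-0.05).

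Transcripts of BiP and of some calnexin clones fell under PEG. The list of ER chaperones and folding held 8 clones, of which 5 were tested. Of these 4 fell, 0 rose and 1 was not called (80% called, against 11.5% of all clones), with a median of -1.0. All 4 falls were in the lists that the study drew from these same hybridizations, so they are not independent evidence. BiP is the Hsp70 of the ER lumen, and calnexin is its membrane-bound lectin chaperone. BIP4 (AW507892) had -0.88 and -1.43 in replicate 1 and -0.77 and -2.04 in replicate 2, and BiP isoform D (AW509482, LOC547838) had -1.42 and -1.26, then -0.65 and -1.48. All 8 values were below 0. The fitted values were -1.28 ± 0.20 (adjusted p 0.00309, 2.43-fold lower) and -1.2 ± 0.18 (adjusted p 0.00199, 2.30-fold lower). A further BIP4 clone, AW471814, had 3 values of -0.83, -1.08 and -1.42 and was not tested. PDIS-2 (AW508381), a protein disulfide isomerase, was not tested either and had 0.06, -0.05 and -0.21. The study describes 2 other disulfide isomerase-like clones as induced by PEG alone and proposes that both are 1 gene. It also reports that PEG repressed the disulfide isomerase-like form that TUN induced.

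The calnexin gene LOC547851 was named for 4 clones, which differed in value. AW508066, whose sequence is printed above, had -0.61 and -1.10 in replicate 1 and -0.78 and -1.51 in replicate 2 (-1.0 ± 0.15, adjusted p 0.00257), and AW397007 had -0.74 ± 0.19 (adjusted p 0.0334). AW102562 had -0.09, 0.18, 0.26 and 0.02 (0.09 ± 0.09, not called). AI748065 lay between 0.02 and 0.23 in its 3 hybridizations. Of the 4 ER chaperone calls, 1 was kept without PEG replicate 2 (BiP isoform D, adjusted p 0.0363). Those of BIP4, AW508066 and AW397007 were lost, with adjusted p of 0.105, 0.094 and 0.387, and that of AW397007 was also lost without PEG replicate 1 (0.0917).

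**Figure D3:**
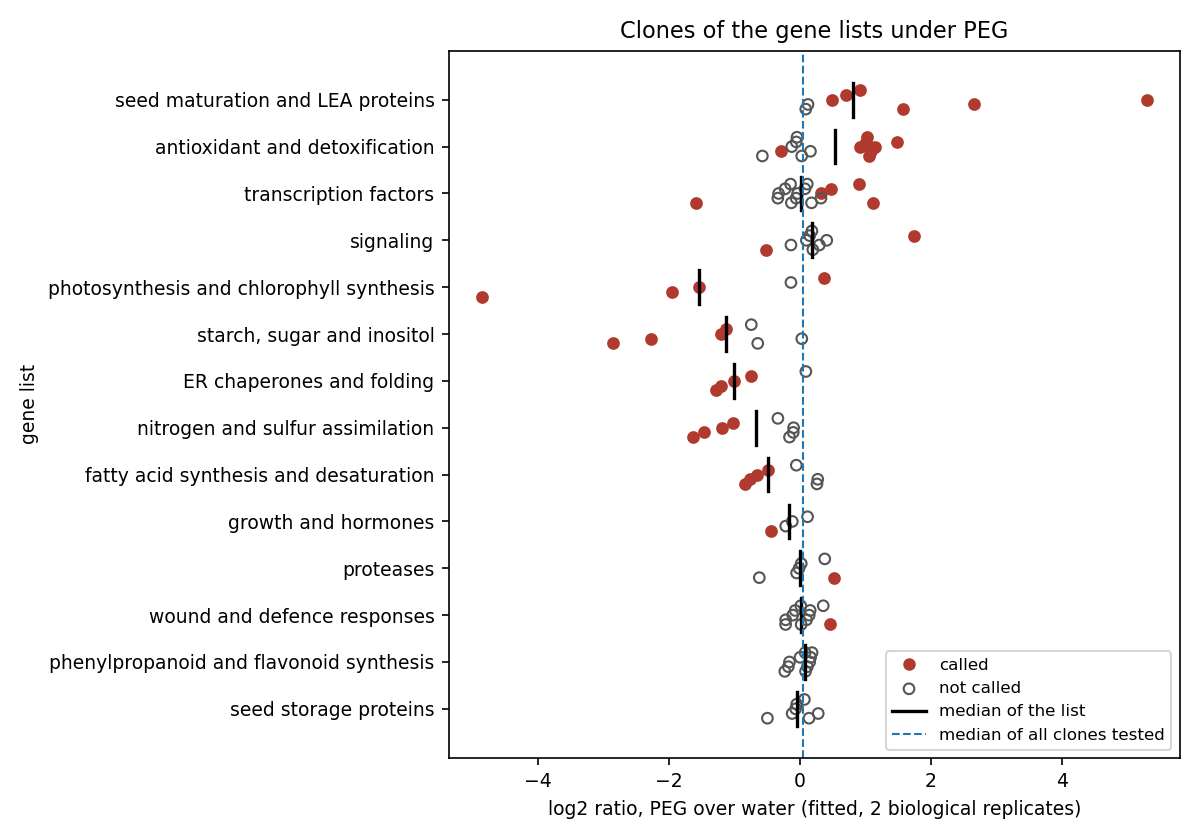
Fitted log2 ratio of PEG over water of each tested clone in 14 gene lists (filled, called; open, not called), with the median of each list as a black bar and the median of all tested clones, 0.04, as a dashed line. List medians run from -1.53 for photosynthesis and chlorophyll synthesis to 0.81 for seed maturation and LEA proteins.

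Other lists had few calls or none. The lists for wound and defence, for proteases and for growth and hormones had 1 call each. That was 9.09%, 16.7% and 25% of their tested clones, against 11.5% of all clones. None of 10 tested clones for phenylpropanoid and flavonoid synthesis, which covers chalcone synthase, chalcone isomerase and dihydroflavonol reductase, was called by limma (0 at an unadjusted p under 0.05 and 0 by the methods' t-test), with values from -0.23 to 0.19 and a median of 0.08. Among 11 clones for wound and defence responses, 1 rose: LOX1.1 (AW508203), a lipoxygenase, at 0.47 ± 0.12 (adjusted p 0.031), a call lost without either replicate (0.0781 without PEG replicate 1 and 0.321 without PEG replicate 2). The vegetative storage protein VSPA had 0.16 and COI1, the jasmonate receptor, 0.02. Among the proteases, VPE2 (AW279101), a vacuolar processing enzyme, had -0.62 ± 0.18 (adjusted p 0.0638). It was not called, though all 4 of its values were below 0. Of 6 protease clones, 1 clone of the vacuolar processing enzyme VPE rose (AW568832, 0.53 ± 0.12, adjusted p 0.0196, with 0.323 without PEG replicate 2), whereas another clone of VPE, AW508991, had 0.02. In the list of growth and hormones, SHOOT1 was called at -0.43 ± 0.11 (adjusted p 0.0287), but with 1 of its 4 hybridizations above 0 (0.04), and the call was lost without PEG replicate 1 (0.0628) or PEG replicate 2 (0.318). The elongation factor list had 1 tested clone, at 0.04, and no named clone stood for water channels or other membrane transport.

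Of 76 tested named clones in no list, 4 fell and 0 rose (5.26% called, a share below the 11.5% of all clones and near the 5.83% lower among them). SOYCTA (AW570398), which had -0.28 to -0.89 in the 4 hybridizations, fell by 0.64 ± 0.08 (adjusted p 0.000698). LOC547884 (AW102551) was at -0.79 ± 0.15 (adjusted p 0.00919), LOC547761 (AW472360) at -0.57 ± 0.12 (adjusted p 0.0115) and LOC547605 (AW598221) at -0.55 ± 0.11 (adjusted p 0.0125). These last 3 missed the threshold when PEG replicate 1 was left out (0.0573, 0.0623 and 0.071), as did LOC547884 (0.183) and LOC547761 (0.179) when PEG replicate 2 was left out. CYP93E1 (AW507877), a cytochrome P450 of triterpene synthesis that the study lists for PEG, had 4 values from -1.16 to -0.58 and -0.89 ± 0.32, with an adjusted p of 0.11.

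Clones of 1 gene could be compared for 27 genes with at least 2 tested clones. All clones were called for 4 of these genes (ALDH7B1, FAD2-3, GAPDH A and NRT1-3), some but not all for 8, and none for 15. The widest range was that of GBSS, 2.11 between AW472193 and AW508018, followed by calnexin (1.09) and ferritin H-1 (1.0). A symbol was taken from the annotation of the array, and whether each clone hybridizes to the transcript of its symbol alone was not tested.

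**Figure D4:**
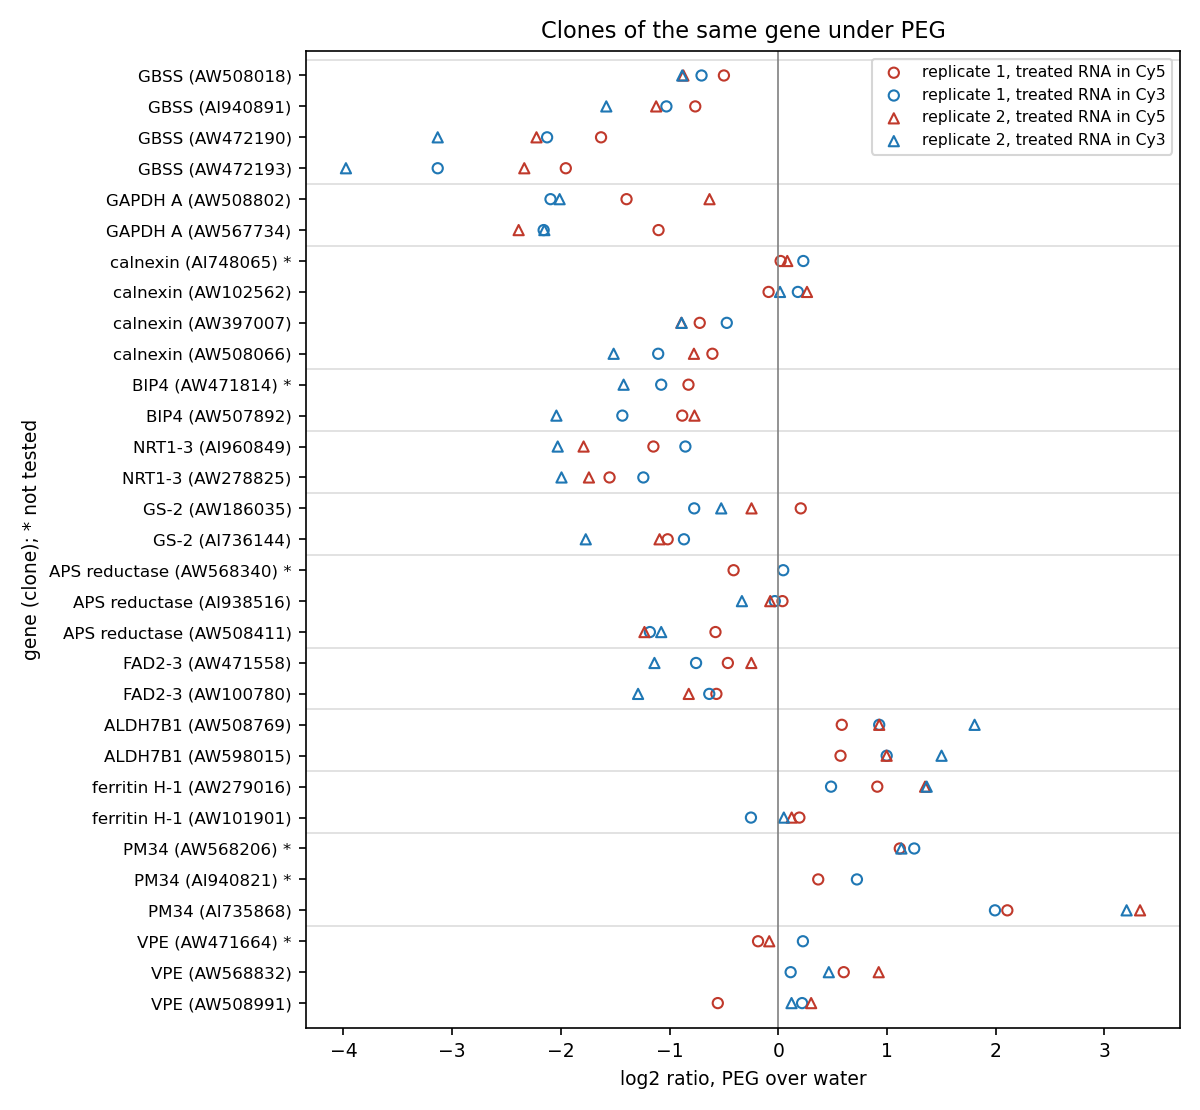
Log2 ratio of PEG over water in each hybridization for all clones of 12 genes that have several clones (circles, replicate 1; triangles, replicate 2; red, treated RNA in Cy5; blue, treated RNA in Cy3; an asterisk marks clones that were not tested). Both NRT1-3 clones lie at -0.85 or below throughout, whereas of the 4 calnexin clones 2 lie below 0 and 2 near 0.

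To see where PEG differed from the ER stressors, the treatments were compared in the same fit. PEG was above AZC for 110 clones (2.82%) and below it for 110 (2.82%) of 3895, 5.65% in all. It was above TUN for 95 (2.56%) and below it for 115 (3.1%) of 3714, 5.65% in all. Against its own control, AZC raised 139 (3.57%) and lowered 182 (4.67%) of the clones tested for PEG, 8.24% in all. TUN raised 150 (4.04%) and lowered 118 (3.18%), 7.22% in all. Without PEG replicate 2, PEG was above AZC for 62 clones and below it for 71, and above TUN for 44 and below it for 51. Doses differed, TUN acted longer and had another solvent control, and PEG and AZC may share water plants. Among all named clones, PEG was above AZC in 14 and below it in 11 of 182.

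The ER chaperone clones that PEG lowered lay far below their values under the ER stressors. BIP4 (AW507892), at -1.28 under PEG, had 4.38 ± 0.20 under AZC and 4.88 ± 0.20 under TUN, so that PEG minus AZC was -5.66 ± 0.29 (adjusted p 7.8e-06) and PEG minus TUN -6.16 ± 0.29 (adjusted p 4.36e-06). BiP isoform D had 4.97 and 5.21 under AZC and TUN (adjusted p of the differences 2.63e-06 and 1.28e-06). The calnexin clone AW508066 had 3.91 and 4.51, and AW397007 had 2.84 and 3.97, all with PEG lower (adjusted p of at most 0.000134). The calnexin clone AW102562 had 0.04 under AZC and 0.06 under TUN, as near 0 as under PEG. LOX1.1 (AW508203) had 1.83 under AZC and 2.62 under TUN, above its 0.47 under PEG (adjusted p 0.00145 and 0.000219).

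LEA and detoxifying clones went the other way. PM30 had -0.11 ± 0.55 under AZC and 0.23 ± 0.55 under TUN, and PEG was above both (adjusted p 0.00376 and 0.00549). PM34 had 0.16 and -0.10, PM12 0.25 and 0.10, and phospholipase C 0.29 and -0.13 under AZC and TUN, each below its value under PEG (adjusted p of at most 0.00699 in these 6 differences). Ferritin AW186337 (-0.39 and -0.04), epoxide hydrolase AW568104 (0.07 and -0.24), ALDH7B1 AW598015 (-0.03 and -0.12) and BZIP77 (-0.01 and -0.08) also lay below PEG, with adjusted p of at most 0.0149. The second ALDH7B1 clone, AW508769, lay below PEG under AZC (-0.26, adjusted p 0.0103) but was not told apart from it under TUN (0.28, difference 0.78 ± 0.23, adjusted p 0.0993). The list of seed maturation and LEA proteins had PEG above AZC in 5 of 7 clones and above TUN in 4 of 8, and below in 0.

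Some PEG rises were not told apart from those of the ER stressors. GSTU41 rose by 1.19 ± 0.11 under TUN on the arrays, and the difference from PEG was -0.04 ± 0.16 (adjusted p 0.927). In the study's real-time RT-PCR, on the cultivar Conquista, GST transcripts including that of this clone were not induced by TUN. Against AZC, where it rose by 0.57, the difference was 0.58 ± 0.16 (adjusted p 0.0769). NAC3 rose by 1.0 ± 0.16 under AZC, a difference of 0.12 ± 0.23 from PEG (adjusted p 0.832), and had 0.35 under TUN (difference 0.77 ± 0.23, adjusted p 0.0924). Ferritin H-1 (AW279016) had 0.93 under TUN (difference 0.10 ± 0.23, adjusted p 0.86).

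Several falls were also seen with the ER stressors. The light-harvesting clone AW472492 had -4.96 ± 0.52 under AZC and -3.36 ± 0.52 under TUN, with differences of 0.11 ± 0.73 (adjusted p 0.958) and -1.49 ± 0.73 (adjusted p 0.316) from PEG. MIPS had -1.2 under AZC and -0.77 under TUN, and GS-2 (AI736144) had -1.13 and -1.12, with adjusted p of at least 0.258 for their 4 differences. GBSS AW472193 fell further under AZC, to -4.14 ± 0.19 (adjusted p of the difference 0.0214), and had -2.70 under TUN (0.811). HDL56 had -1.85 under AZC, a difference of 0.26 ± 0.17 from PEG (adjusted p 0.506).

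Other falls differed. NRT1-3 (AW278825) had 0.09 under AZC, above its -1.632 under PEG (adjusted p 0.00421), and -0.66 under TUN (adjusted p 0.0633). Its clone AI960849 had -0.36 and -0.51 (0.0594 and 0.101). 5-adenylylsulfate reductase AW508411 had 0.24 under AZC (adjusted p 0.0113) and -0.13 under TUN (0.0563). FAD2-3 AW100780 fell under AZC as well (-0.86, adjusted p of the difference 0.954), but had 0.07 under TUN (0.0179), and its clone AW471558 had -0.82 and 0.02 (0.642 and 0.0283). FAD3A fell further under AZC (-1.82, adjusted p of the difference 0.0147) and had -0.78 under TUN (difference 0.02 ± 0.20, adjusted p 0.978).

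The 2 GAPDH A clones, both lower under PEG, parted under AZC. AW567734 had -4.22 ± 0.14 there, below its -1.95 under PEG (adjusted p 0.000513), whereas AW508802 had 0.00 ± 0.16, above its -1.53 under PEG (adjusted p 0.00366). AW508802 had -0.27 under TUN, above PEG too (adjusted p 0.0101). AW567734 had no TUN value.

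**Figure D5:**
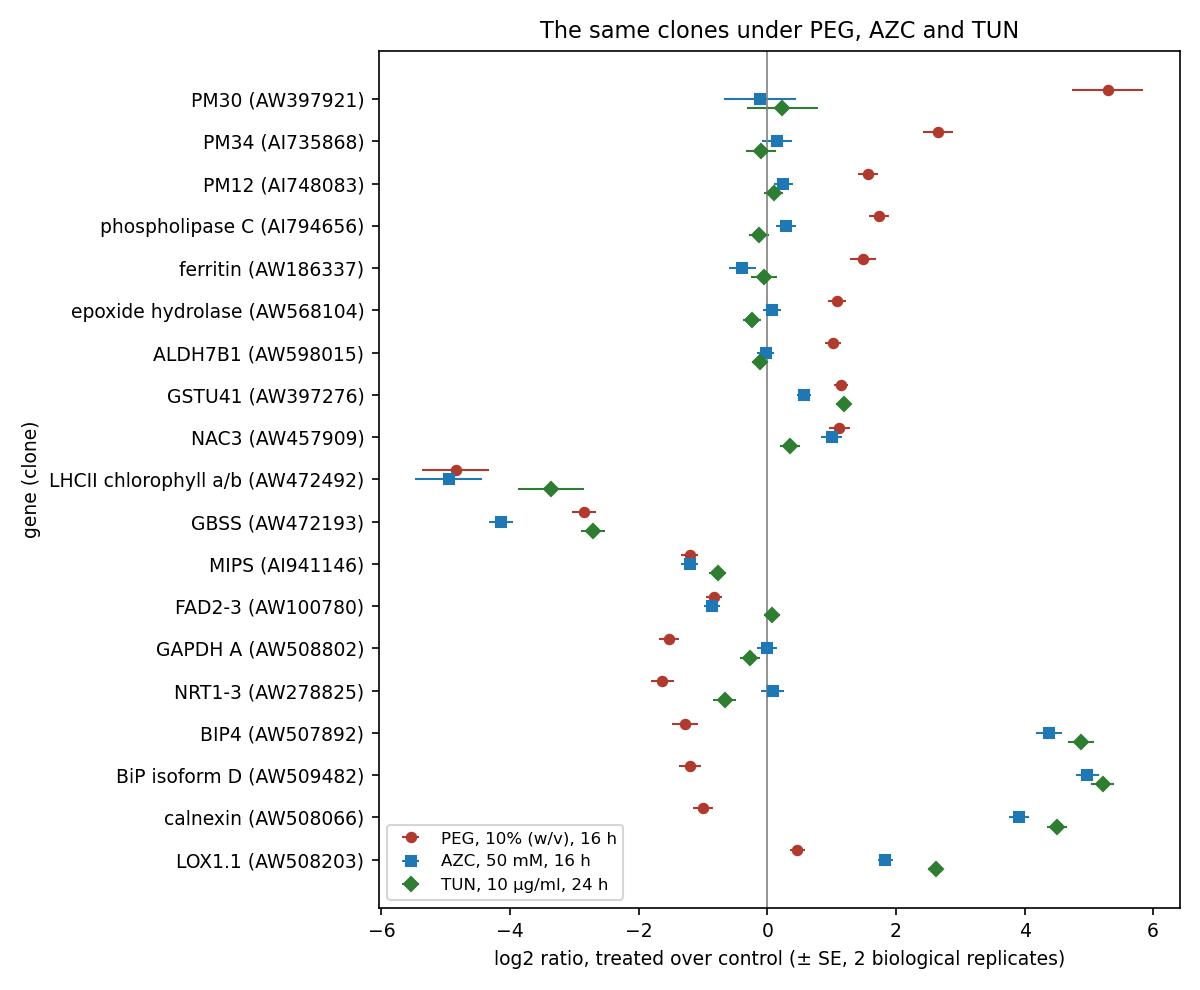
Fitted log2 ratio of treated over control (± SE of the joint fit, 2 biological replicates per treatment) of 19 named clones under PEG, AZC and TUN. PEG lies apart from both ER stressors, to the right for PM30, PM34 and PM12 and to the left for BiP and calnexin, while the 3 treatments all lie left of 0 for the light-harvesting clone, GBSS and MIPS.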

How the data were processed

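Total leaf RNA of PEG-treated and water plants was labelled with Cy3 and Cy5 and hybridized to cDNA arrays, 4 hybridizations from 2 biological replicates. The authors subtracted background, normalized by LOWESS and deposited log2 ratios, whose direction (PEG over water) was found from the scanner intensities and the dyes of the labels. The authors also deposited the scanner intensity of each spot and the percent of its pixels that were saturated. The file headers name ScanArray Express, whereas the methods name QuantArray. The 2 scanner files of PEG replicate 1 matched each other's ratio column (r 0.93 and 0.95, against -0.51 and -0.49 for their own) and were used exchanged.

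Dye-swap pairs were averaged to 1 value per replicate, with both required and spots that the scanner software marked 1 or 4 omitted (meaning not given in the sources used here). Spots needed 1 channel above local background plus 2 SD on at least 3 of the 4 hybridizations, which all 5760 passed. The 6 replicate values of PEG, AZC and TUN entered 1 linear model with an intensity trend (limma 3.58.1, R 4.3.3), each treatment was tested against 0 and PEG against the others, and p-values were adjusted by Benjamini-Hochberg at 0.05 over all clones tested. Errors are SEs of that fit, with 1 spread per clone shared by the PEG, AZC and TUN replicates, and the number of arrays limits the precision. The fit was tested on simulated data.

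Named clones are those with 1 gene in the annotation: the 15 largest rises and falls among called clones with 1 sign in both replicates, clones of gene lists written from names, and clones the study lists for PEG. These choices were made with earlier results of these data known. Of the gene identifiers 249 matched RefSeq (Glycine_max_v4.0), used for names and chromosomes.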

Additional observations from a re-analysis of the deposited data

Results flagged for a closer look

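In 1 of 57 named clones checked, a single hybridization lay apart from the other 3 by more than Dixon's 95% critical value for 4 samples, which chance exceeds in about 1 of 20 groups. This was PM39 (AW509471), whose value was -0.27 in replicate 2 with the treated RNA in Cy5, against 0.88, 1.11 and 1.08 in the others. That hybridization was the weak one, quantified by another method. Without it the fitted value was 1.04 (adjusted p 0.00248), against 0.70 with it.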

How the results depend on the processing

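Counts of 239 rises and 247 falls stayed within 1.5 times of these values under most alternatives. They were 91 and 116 without PEG replicate 2, and 258 and 202 without PEG replicate 1. Rises numbered 370 with the treated RNA in Cy3 only, and 413 when all 12 hybridizations were fitted with a dye term and the replicate as a random block. The number of clones tested changed too, to 5502 without PEG replicate 2, 4189 without PEG replicate 1 and 4766 in Cy3 only. The methods' t-test over the 4 hybridizations with their fold limit gave 104 rises and 142 falls unadjusted and 0 and 2 after Benjamini-Hochberg adjustment. With the scanner files of PEG replicate 1 as listed, limma called 0 rises and 0 falls (46 and 36 at an unadjusted p under 0.05). Leaving out either PEG replicate gave 62 to 104 clones with PEG above AZC, 71 to 98 below it, 44 to 118 above TUN and 51 to 102 below it.

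All 48 called named clones kept their direction under the other alternatives except GSTU3 (AW471665), at 0.12 with the treated RNA in Cy5 only. With the files as listed, 11 turned direction, none of them called: SOYCTA 0.028, NAC2 -0.077, GSTU41 -0.035, HDL56 0.14, LOC547761 0.022, LOC547838 0.21, PM39 -0.56, PM41 -0.34, LOC547605 0.16, LOC547865 -0.033 and LOC732655 (AW508802) 0.17. Of the 48 calls 36 remained without PEG replicate 1 and 25 without PEG replicate 2. Each of these fits held 1 PEG value per clone, so the calls kept there are not replicated tests of PEG. The replicate block gave 245 rises and 236 falls and 46 of the 48 calls. Deviations of replicate 1 from replicate 2 correlated at -0.09 for PEG and AZC, -0.06 for PEG and TUN and 0.13 for AZC and TUN. Whether replicates of different treatments share more than a number was not tested. Scanner software marked 586 and 979 spots in the hybridizations of replicate 2, against 50 and 25 in replicate 1.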
